A study of Mus musculus with 21 samples.

Results

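The cytosolic ribosomal protein genes were followed in Ba/F3 cells, an interleukin 3-dependent mouse pro-B cell line, after electrical actuation on a digital microfluidic device or after heat. Members were all array probes whose gene name begins with RPL or RPS and a digit, or is RPLP0, RPLP1, RPLP2 or RPSA, with the ribosomal S6 kinases left out. These were 105 of the 45281 probes on the array and carried 71 of its 30854 gene names. One of them, Rps19bp1, binds a ribosomal protein and is not itself a subunit, and another, RPS4Y2, is Rps4l in current annotation. Rpl5, Rpl10, Rpl11, Rps27 and Rpl10l have no probe among the members and were not analysed here.

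The 21 samples were total RNA in 7 groups of 3, read in separate batches. Batch A held cells actuated for 15 min at 400 Vpp and 18 kHz, cells actuated for 15 min at 400 Vpp and 1 kHz, and untreated cells. Batch B held untreated cells and cells heated for 15 min at 42 °C, 47 °C or 52 °C. The labels do not say whether untreated cells were placed on a device, how long after treatment the cells were lysed, or whether samples of a group were separate cultures, so the p-values measure a spread among samples that may be technical. The comparisons of treated with untreated cells share the 3 untreated arrays of their batch, and the number of arrays limits their precision.

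Each cytosolic ribosome joins a small subunit, which decodes mRNA, to a large subunit, which forms peptide bonds and carries the stalk that recruits translation factors. Their proteins are made in matched amounts, and in mammals nearly all of their mRNAs start with a terminal oligopyrimidine (TOP) tract, a C followed by a run of C and T. That tract places their translation under mTOR and LARP1 when growth factors, such as interleukin 3, are withdrawn or cells are stressed, and much of this regulation acts on translation, which an array of total RNA does not measure.

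Below are the start regions of 4 members picked for long pyrimidine runs and of 5 genes whose probes changed in a treatment. Each runs from 10 bases before to 20 bases after the annotated start, read from RefSeq on GRCm38.p6 along the coding strand, and capitals mark its longest run of C and T.
Rpl27a, chr7:109519185-109519214, plus strand: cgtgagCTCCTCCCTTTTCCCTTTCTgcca
Rpl35, chr2:39005112-39005141, minus strand: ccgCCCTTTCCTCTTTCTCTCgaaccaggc
Rpl7a, chr2:26910797-26910826, plus strand: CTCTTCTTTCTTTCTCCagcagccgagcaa
Rps6, chr4:86857348-86857377, minus strand: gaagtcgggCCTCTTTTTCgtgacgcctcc
Rps13, chr7:116334171-116334200, minus strand: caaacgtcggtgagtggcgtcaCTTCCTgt
Rps15a, chr7:118116128-118116157, minus strand: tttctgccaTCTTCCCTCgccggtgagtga
Rps24, chr14:24490668-24490697, plus strand: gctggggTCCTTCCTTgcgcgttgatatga
Rpl22, chr4:152324426-152324455, plus strand: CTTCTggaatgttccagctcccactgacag
Rpl3l, chr17:24727816-24727845, plus strand: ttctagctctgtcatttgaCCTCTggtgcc

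RefSeq promoters were matched for 55 of the 71 names, which gave 65 start regions. The median longest run of C and T was 6 bases among them and 4 bases among all 32851 start regions. The 4 members shown first were picked for their runs, so their contrast with the other 5 genes comes from that choice. Rplp0, which also had a called probe and is not shown, had a longest run of 7 bases. Rps24, Rpl22 and Rpl3l each have another annotated start that is not shown. A run of at least 8 bases was present in 32.3% of the members' regions and in 11.2% of all. The letters CTTT on the coding strand stood in 24.6% of the members' regions and in 11.6% of all. Over the longer promoter, from 250 bases before to 50 bases after the start, CCGGAA on either strand was present in 49.2% of the members' promoters and in 14.9% of all. The members' promoters had a median GC content of 59.3%, against 52.7% for all promoters. Annotated starts can lie a few bases from the start in use, so a run or its lack here describes these letters only.

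Levels are log2 intensities after background correction and quantile normalization within a batch, and a probe entered the test once 3 or more arrays of its batch had a detection p under 0.01 for it. This kept 91 member probes of 66 names in batch A and 92 of 65 names in batch B. Another 12 member probes in batch A and 9 in batch B were detected on no array. Rpl6, Rpl17 and Rps23, all subunits of the ribosome, had no tested probe in either batch, nor had the paralogs Rpl39l and Rps4l. Array intensity also depends on the probe's own sequence, so brightness is not compared as transcript amount between genes. Cell number and RNA per cell cannot be told apart in these bulk samples, and quantile normalization removes any change shared by all transcripts.

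Over whole arrays, detected probes numbered 9420 to 14355 per array of batch A and 12004 to 13234 per array of batch B. The cells carried transcripts of the interleukin 3 receptor genes Il3ra, Csf2rb and Csf2rb2, while Kit was not detected. Of the B lineage markers only Cd79b, 1 of 7, was detected, all 5 mast cell and basophil markers were detected, and the 4 T cell markers were not. Of 3 macrophage markers, Adgre1 was detected in both batches, Cd68 in batch A only and Csf1r in neither. In the 18 kHz group, replicates 2 and 1 were the dimmest arrays of batch A, with 95th percentiles of raw intensity of 277.4 and 732.7 against 1110.7 to 1857.1 on the other arrays of that batch. In the 52 °C group, the alpha globin probe of Hba-a1 stood at 9.99 and 9.93 on replicates 2 and 3 but at 4.53, not detected, on replicate 1. It lay between 4.57 and 5.40 at 42 °C and 47 °C and at 4.80, 4.96 and 5.25 in untreated cells of batch B, where 1 of 3 arrays detected it, and between 8.72 and 10.08 on every array of batch A. The beta globin gene Hbb-b1 was not detected. The summed raw intensity of the mast cell and basophil list was 12720 to 26486 at 52 °C and 27947 to 32306 in untreated cells. Calls that rest on these arrays are also given without them.

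Ribosomal protein probes were among the brightest on the array. Their median level was 13.92 in batch A and 13.91 in batch B, against 7.76 and 7.42 for all tested probes, and 30 and 32 of the 100 brightest probes were members. In batch A, 45 members lay above a level of 14, 28 between 8 and 14, and 18 below 8. A member was the single brightest probe of 2 of 9 arrays in batch A and of 7 of 12 in batch B. The files hold no saturation flag, so a probe was called bright here if its raw intensity passed 50% of the brightest probe on any array. By that rule 42 of 91 tested members were bright in batch A, among 161 bright probes in all, and 44 of 92 in batch B, among 191.

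Bright members varied little, both between replicates and between treatments. Their median within-group SD was 0.09 in batch A and 0.08 in batch B, against 0.18 and 0.20 for the other members. None of the bright members was called in any comparison with untreated cells. The median size of their change was 0.14 at 18 kHz, 0.04 at 1 kHz, 0.05 at 42 °C, 0.09 at 47 °C and 0.09 at 52 °C. The dimmer members had median sizes of 0.24, 0.14, 0.15, 0.18 and 0.25 in the same comparisons. The part of an upper limit of the scanner in the small changes of bright probes was not tested.

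**Figure D1:**
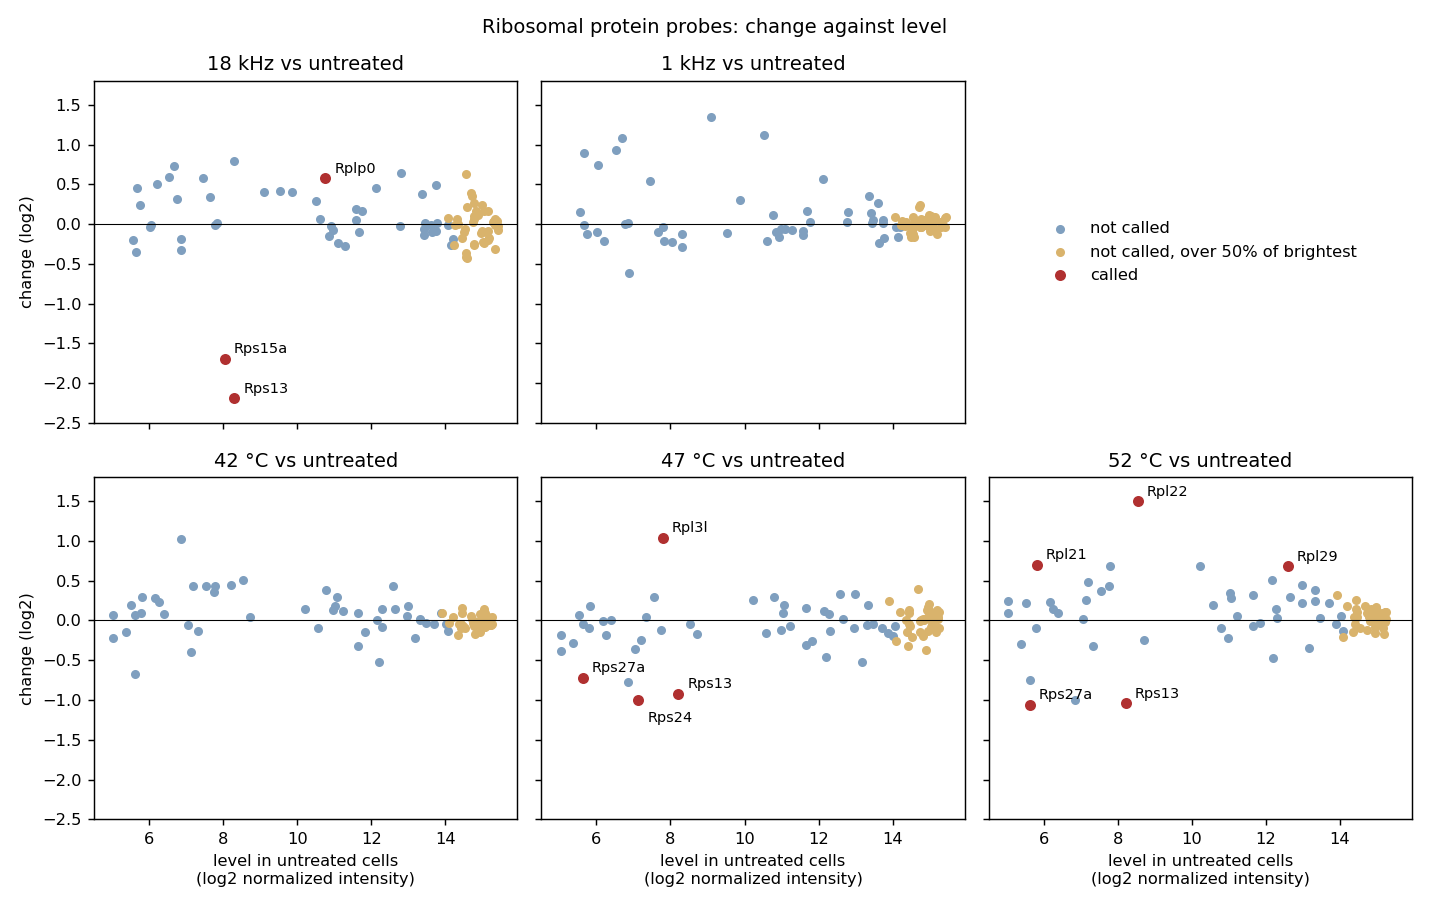
Change of each tested ribosomal protein probe (log2, vertical) against its mean level in untreated cells of the same batch (log2 normalized intensity, horizontal), for the 5 treatments. The called probes, in red and named, lie below a level of 13, and the bright probes, in tan, cluster near 0.

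Most ribosomal protein transcripts did not pass the test after any treatment. A probe was called if limma's adjusted p, by Benjamini-Hochberg over all tested probes, was below 0.05. At 18 kHz, 1 member was higher and 2 were lower of 91 tested, where 1.28% of all probes were called higher and 1.66% lower. At 1 kHz none of 91 was called by limma, where 0% of all probes were, and 1 member had an unadjusted p below 0.05. At 42 °C none of 92 was called by limma, where 2.38% of all probes were, and 9 members had an unadjusted p below 0.05. At 47 °C, 1 member was higher and 3 were lower, where 3.42% of all probes were called higher and 4.41% lower. At 52 °C, 3 members were higher and 2 were lower, where 6.55% of all probes were called higher and 6.24% lower.

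The median change of all tested members was -0.01 at 18 kHz, 0.01 at 1 kHz, 0.01 at 42 °C, -0.02 at 47 °C and 0.06 at 52 °C, against -0.08, -0.04, 0.00, -0.01 and -0.01 for all probes. The 3 arrays of a treatment did not overlap the untreated arrays for 21 members at 18 kHz, where 30.3% of all probes were so separated, and for 14 at 1 kHz, where 13.3% were. Such members numbered 22 at 42 °C, where 27.2% of all probes were separated, 29 at 47 °C, where 34% were, and 23 at 52 °C, where 31% were.

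Small-subunit probes, 36 of those tested, had median changes of -0.08 at 18 kHz, 0.01 at 1 kHz, 0.00 at 42 °C, -0.07 at 47 °C and 0.02 at 52 °C. Every called probe among them was lower, 2 at 18 kHz, 3 at 47 °C and 2 at 52 °C, but 1 of the calls at 47 °C and 1 at 52 °C was an Rps27a probe that entered the test through the untreated arrays and could hardly be called higher. The 2 probes called at 18 kHz also needed arrays of other groups to enter the test. Large-subunit probes outside the stalk, 44 in batch A and 45 in batch B, had medians of 0.06, 0.02, 0.04, -0.01 and 0.09 in the same order. Their only calls were 3 higher probes at 52 °C. The 4 stalk probes of Rplp0, Rplp1 and Rplp2 had medians of 0.31, 0.10, 0.06, 0.05 and 0.20, with 1 higher call, at 18 kHz.

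Rps13 and Rps15a, both proteins of the small subunit, gave the largest falls at 18 kHz. Rps13 probe 1470671 stood at 5.61, 5.94 and 6.76 at 18 kHz, at 7.91, 8.16 and 7.95 at 1 kHz, and at 8.23, 8.27 and 8.41 in untreated cells. All 3 arrays at 18 kHz were below every other array of the batch, and the probe was detected on only 1 of them. It needed the 1 kHz or untreated arrays, where it was higher, to enter the test, and such a selection favours a fall. The change from untreated was -2.19 ± 0.26 (SE; n = 3 each; limma adjusted p 0.00921), and no fold is given, since 2 of the 3 arrays did not detect the probe. Fitted to the authors' deposited log2 values, the change was smaller, at -1.13 (adjusted p 1.59e-05). Against 1 kHz it was -1.90 (adjusted p 0.0169).

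Rps15a probe 6270092 stood at 6.60, 5.90 and 6.58 at 18 kHz, at 7.71, 7.73 and 8.03 at 1 kHz, and at 7.99, 7.98 and 8.18 in untreated cells. The 18 kHz arrays were again below all others, and 2 of them detected the probe. This probe too needed arrays of the other groups, where it was higher, to enter the test. The change from untreated was -1.69 ± 0.20 (limma adjusted p 0.00921), or -0.88 with the authors' deposited log2 values (0.000233), and against 1 kHz it was -1.46 (adjusted p 0.0169). In 18 kHz against 1 kHz these were the 2 lower calls, where 0.955% of all probes were called lower, and Rpl3l was the 1 higher call, where 1.45% were called higher.

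Without the dimmest arrays, replicates 1 and 2 at 18 kHz, the changes from untreated were -1.54 for Rps13 (limma adjusted p 0.0103) and -1.47 for Rps15a (0.0146), with the spread of the lone array taken from the other groups. In the same fit the changes from 1 kHz were -1.24 (0.0213) and -1.25 (0.0317). Leaving out untreated replicate 3 or 1 raised the adjusted p of both to 0.0672 or 0.055. With the beadchip, the glass slide that holds several arrays, as a block, the changes were -2.03 (adjusted p 0.0145) and -1.77 (0.0146), and within beadchip 2 they were -1.95 and -1.81 (0.197 each). Beadchip 1 of batch A held no untreated array. Leaving out any of the 1 kHz arrays took both calls against 1 kHz past the threshold, to an adjusted p of up to 0.0953.

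The same probes differed among the heat treatments. Rps13 probe 1470671 stood at 8.20, 8.33 and 8.10 in untreated cells, 8.64, 8.58 and 8.75 at 42 °C, 7.27, 7.48 and 7.11 at 47 °C, and 7.69, 6.97 and 6.85 at 52 °C. All arrays at 42 °C were above the untreated arrays, and all arrays at 47 °C and 52 °C were below them. The change from untreated was 0.45 at 42 °C, which did not pass the test, -0.92 ± 0.20 at 47 °C (limma adjusted p 0.0202) and -1.04 ± 0.20 at 52 °C (adjusted p 0.008), falls of 1.89-fold and 2.06-fold. With the authors' deposited log2 values these changes were -0.58 (0.00294) and -0.64 (0.000907). Against 42 °C it was -1.37 at 47 °C (adjusted p 0.00266) and -1.49 at 52 °C (adjusted p 0.00102).

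Rps15a probe 6270092 stood at 6.68, 6.92 and 6.95 in untreated cells, 7.56, 8.31 and 7.75 at 42 °C, 6.61, 5.40 and 6.24 at 47 °C, and 6.63, 5.11 and 5.82 at 52 °C. The 42 °C arrays were the highest and the 47 °C and 52 °C arrays overlapped each other. No change from untreated passed the test, with 1.02 at 42 °C (limma adjusted p 0.194) and -1.0 at 52 °C (0.0874). Against 42 °C the changes did pass, at -1.79 for 47 °C (adjusted p 0.0227) and -2.02 for 52 °C (0.00636). These calls were 2 lower members of 92 at 47 °C, where 1.3% of all probes were called lower, and 2 of the 3 lower members at 52 °C, where 3.62% were.

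The 52 °C calls of Rps13 held without any single array, and the 47 °C call from untreated failed the threshold once untreated replicate 3 (adjusted p 0.0571), untreated replicate 2 (0.0802) or 47 °C replicate 3 (0.0759) was left out. With 52 °C replicates 2 and 3, the arrays with Hba-a1 signal, left out and the spread of the lone array taken from the other groups, the Rps13 change at 52 °C was -0.52 from untreated (limma adjusted p 0.225) and -0.97 from 42 °C (0.0348), and the Rps15a change from 42 °C was -1.24 (0.159). The Rps15a call at 47 °C against 42 °C held without 2 of 6 arrays left out in turn, with adjusted p up to 0.091. Within beadchip 1 the Rps13 change was -1.02 at 47 °C (adjusted p 0.0452). At 52 °C it was -1.36 within beadchip 1, which held 1 array at 52 °C, replicate 3, and -0.87 within beadchip 2, which held 1 untreated array.

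A second Rps13 probe, 1030612, did not move with the first. It stood at 13.48, 13.61 and 13.89 at 18 kHz and at 13.49, 13.85 and 13.90 in untreated cells of batch A, and these ranges overlap almost wholly. Its changes were -0.09 at 18 kHz, -0.05 at 47 °C and 0.03 at 52 °C, none called. The 2 probes read the same gene name and gave different answers in 3 treatments. The cause was not tested.

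**Figure D2:**
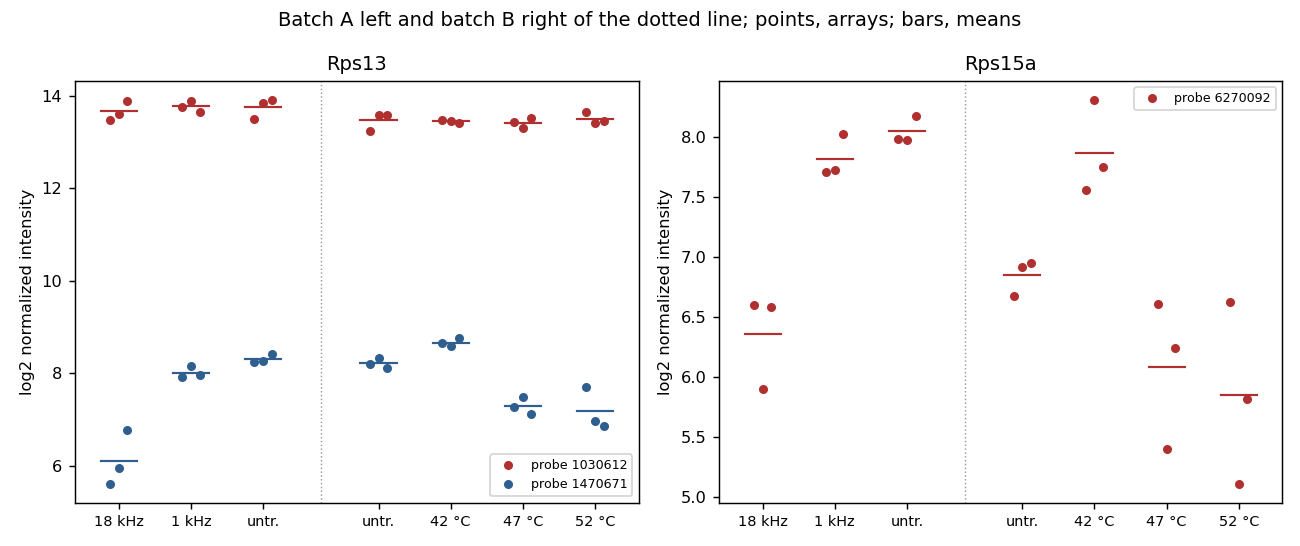
Level of the Rps13 and Rps15a probes (log2 normalized intensity) on every array, by group, with batch A left and batch B right of the dotted line and bars at group means. The Rps13 probe 1470671 and the Rps15a probe fall at 18 kHz and lie below the 42 °C arrays at 47 °C and 52 °C, while the second Rps13 probe stays between 13.24 and 13.90.

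The other small-subunit calls also came from probes with a second probe that was not called. Rps24, which has alternatively spliced 3' exons, had probe 2000315 at 6.20, 6.11 and 6.08 at 47 °C, against 7.42, 7.08 and 6.90 in untreated cells. All 47 °C arrays were below the untreated ones, and the change was -1.0 ± 0.22 (limma adjusted p 0.0218), a 2.00-fold fall. At 52 °C the same probe stood at 7.36, 7.53 and 7.28, which was 0.26 from untreated, not called, and 1.26 above 47 °C (adjusted p 0.0179). It was 1 of 2 members higher at 52 °C than at 47 °C, where 1.73% of all probes were called higher.

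Leaving out untreated replicate 1 or 2, or 47 °C replicate 2 or 3, took the Rps24 call at 47 °C past the threshold, with adjusted p of 0.0633, 0.0701, 0.0542 and 0.072, and the change was -0.48 (0.00856) with the authors' deposited log2 values. The call of 52 °C against 47 °C held in 2 of 6 such fits, and the adjusted p reached 0.0647, and without 52 °C replicates 2 and 3 the change was 1.23 (0.087). Rps24 probe 2710477 lay between 15.09 and 15.39 on all arrays of both batches. Rps24 probe 5490446 was lower by 0.49 at 52 °C than at 42 °C (adjusted p 0.0476), a call lost without any 1 of the 6 arrays (0.0605 to 0.152) and without both 52 °C replicates 2 and 3 (-0.66, 0.103).

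Rps27a encodes a small-subunit protein made as a fusion with ubiquitin. Its probe 5550431, near background, stood at 4.63, 4.58 and 4.48 at 52 °C and at 4.48, 5.27 and 4.98 at 47 °C, against 5.44, 5.64 and 5.80 in untreated cells of batch B. All heated arrays were below the untreated ones. The probe was detected on 0 of 3 arrays at 52 °C, 1 of 3 at 47 °C and 3 of 3 in untreated cells, and it entered the test through the untreated group, so a difference was built into its selection.

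The Rps27a 5550431 change, given as a description for that reason, was -1.06 at 52 °C, a fall of at least 1.30-fold since the probe was not above background there, and -0.72 at 47 °C. Without 52 °C replicates 2 and 3 the change at 52 °C was -1.0. The brighter Rps27a probe 5290577 had changes of -0.52, -0.46 and -0.47 at 42 °C, 47 °C and 52 °C with limma adjusted p of 0.175, 0.123 and 0.0939.

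Of the large-subunit genes, Rpl22 had the largest rise. Rpl22 is an RNA-binding protein of the large subunit, needed in mice for development of alpha-beta T cells. Probe 4640239 stood at 9.12, 10.49 and 10.48 at 52 °C, against 8.18, 8.71 and 8.72 in untreated cells of batch B. All 52 °C arrays were above the untreated ones, and replicates 2 and 3 were well above replicate 1.

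The Rpl22 change at 52 °C was 1.50 ± 0.32 (limma adjusted p 0.0128), a 2.82-fold rise. Against 47 °C, where the probe stood at 8.85, 8.25 and 8.40, the change was 1.53 (adjusted p 0.0263), a call kept in 2 of 6 fits that left out 1 array, with adjusted p up to 0.0905, and without 52 °C replicates 2 and 3 the change was 0.62 (0.229). Without 52 °C replicate 3 or 2 the adjusted p against untreated was 0.0529 or 0.0624. With both left out the change was 0.59 (adjusted p 0.331). These are the arrays on which Hba-a1 was detected, and the part of that difference in the Rpl22 result was not tested. The change was 1.77 within beadchip 1, which held 1 array at 52 °C, replicate 3, and 1.63 within beadchip 2, which held 1 untreated array.

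Rpl29, a large-subunit protein, had probe 3060687 at 13.20, 13.30 and 13.28 at 52 °C, against 12.51, 12.71 and 12.53 in untreated cells. The groups did not overlap, and the change was 0.68 ± 0.18 (limma adjusted p 0.0294), a 1.60-fold rise. Rpl21, also of the large subunit, had probe 1260286 at 6.11, 6.73 and 6.72 at 52 °C, against 6.04, 5.75 and 5.66 in untreated cells. The lowest 52 °C array was just above the highest untreated one, and the change was 0.70 ± 0.19 (adjusted p 0.0303), a 1.63-fold rise.

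These calls rested on few arrays. The Rpl29 call was kept only when 52 °C replicate 1 was left out, and without any other array its adjusted p reached up to 0.101. Without both 52 °C replicates 2 and 3 the Rpl29 change was 0.62 (limma adjusted p 0.291) and the Rpl21 change 0.29 (0.524). Under median scaling the Rpl29 change was 0.17 (0.587) and the Rpl21 change 0.32 (0.265), where the median of all probes was -0.43. The authors' deposited log2 values gave 0.29 (0.0301) for Rpl21. Leaving out 52 °C replicate 2 or 3 alone raised the Rpl21 adjusted p to 0.125 or 0.107, and leaving out untreated replicate 2 or 3 raised it to 0.0843 or 0.106.

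The number of member calls at 52 °C depended on which of its arrays were used. Without 52 °C replicate 1, 8 members were higher and 5 lower, and 1886 probes were higher and 1803 lower over the whole array. Without replicates 2 and 3, chosen as an alternative after the data were seen, no member was called by limma, with 51 higher and 90 lower probes over the whole array. The 18 kHz comparison gave 11 higher and 13 lower members without 18 kHz replicate 3, and 1474 probes were then higher and 2954 lower in all.

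The stalk gene Rplp0 encodes the protein that anchors the stalk to the large subunit. Its probe 1340246 stood at 11.38, 11.44 and 11.19 at 18 kHz, at 10.90, 10.85 and 10.86 at 1 kHz, and at 10.75, 10.83 and 10.71 in untreated cells. The 18 kHz arrays were above all others of batch A. The change from untreated was 0.58 ± 0.11 (limma adjusted p 0.0361), a 1.49-fold rise, and it was the single higher call at 18 kHz.

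The Rplp0 call was kept only when 18 kHz replicate 3 was left out. Without each of the other arrays its adjusted p rose, up to 0.156, and without 18 kHz replicates 1 and 2 the change was 0.43 (adjusted p 0.195). With the beadchip as a block it was 0.56 (0.0639). Under median scaling of the arrays the direction turned, to -0.64 (adjusted p 0.217), where the median of all probes was -1.09. The acidic stalk proteins Rplp1 and Rplp2, which bind to Rplp0 and contact elongation factors, were not called. Rplp1 averaged 15.41 ± 0.05 at 18 kHz, 15.52 ± 0.02 at 1 kHz and 15.43 ± 0.10 in untreated cells (SD, n = 3 each).

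**Figure D3:**
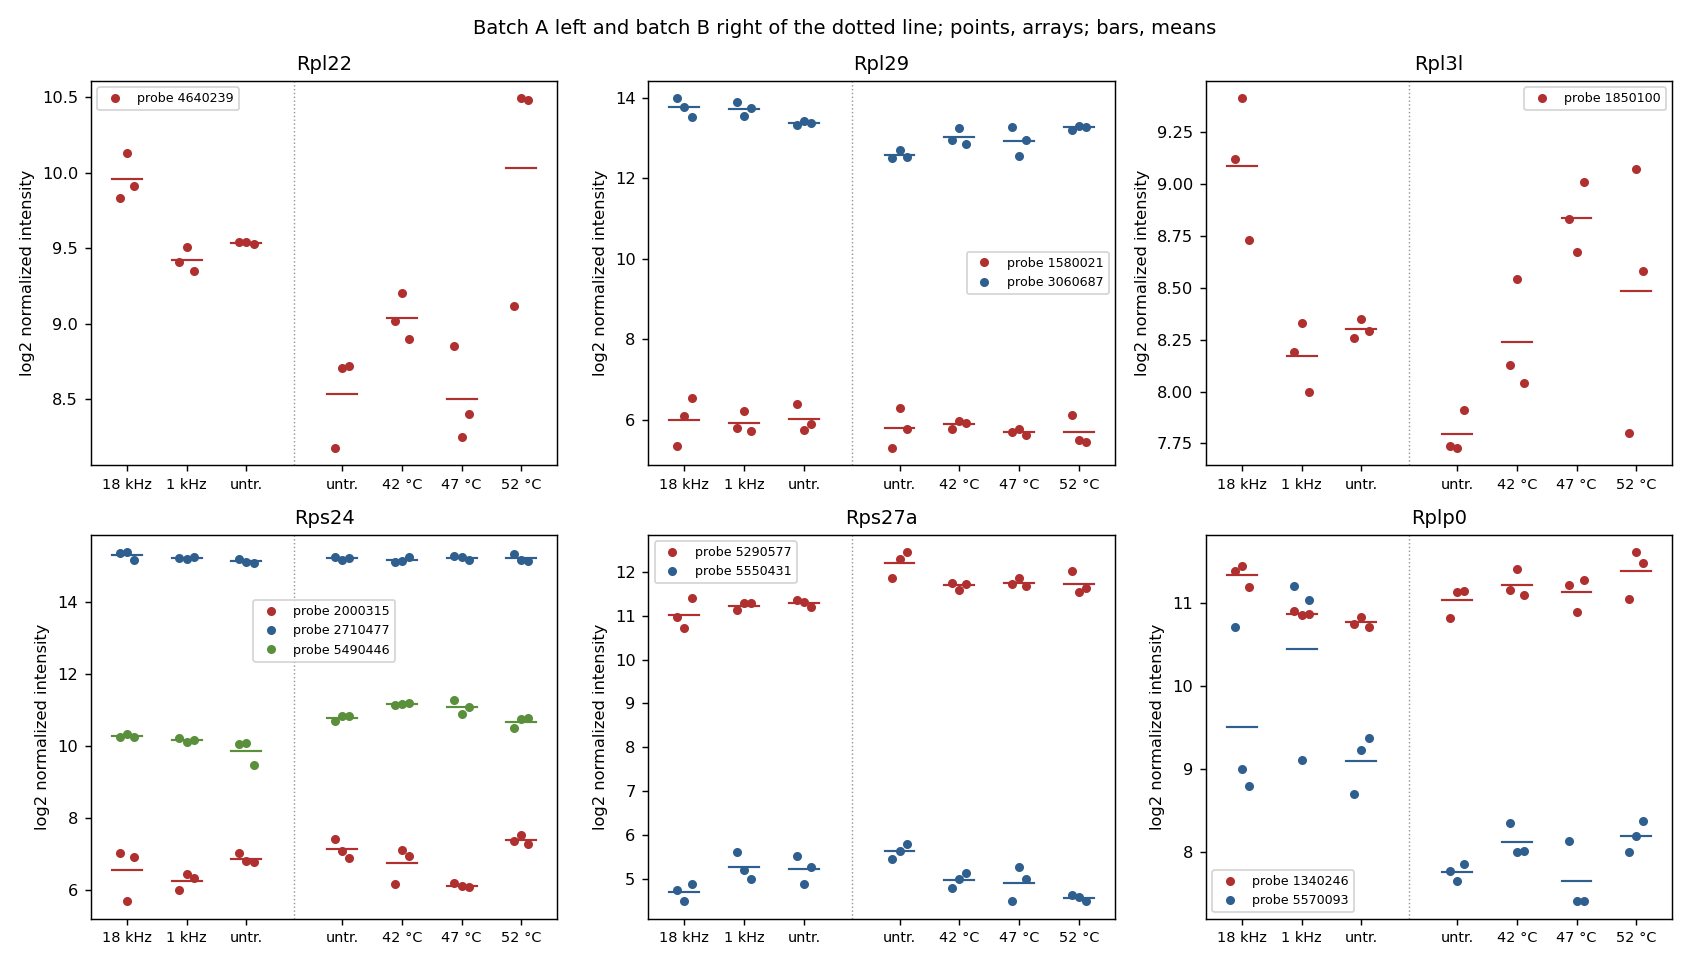
Level of the probes of Rpl22, Rpl29, Rpl3l, Rps24, Rps27a and Rplp0 (log2 normalized intensity, separate scale per gene) on every array, with batch A left and batch B right of the dotted line and bars at group means. The Rpl22 probe is highest on 2 of the 3 arrays at 52 °C, and the probes of Rps24, Rps27a and Rplp0 lie at different levels and follow different courses.

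Of the paralogs with a tested probe, Rpl3l alone was called in any comparison. Rpl3l, a paralog of Rpl3 known from striated muscle, had probe 1850100 at 8.83, 8.67 and 9.01 at 47 °C, against 7.74, 7.73 and 7.91 in untreated cells. The groups did not overlap, and the change was 1.04 ± 0.26 (limma adjusted p 0.0322), a 2.06-fold rise. It stood at 7.80, 9.07 and 8.58 at 52 °C, a change of 0.69 (adjusted p 0.0969), with replicate 1 inside the untreated range.

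At 18 kHz the Rpl3l probe stood at 9.12, 9.41 and 8.73, against 8.19, 8.33 and 8.0 at 1 kHz and 8.26, 8.35 and 8.29 in untreated cells of batch A. The change was 0.79 from untreated (limma adjusted p 0.0527) and 0.91 from 1 kHz (0.0425). Under median scaling the change from 1 kHz was -0.45 (adjusted p 0.351), where the median of all probes was -1.13. Without any 1 of the 6 arrays the 47 °C call was lost, with adjusted p of 0.0545 to 0.107. Under median scaling the 47 °C change was 0.49 (0.131), where the median of all probes was -0.46. The call of 18 kHz against 1 kHz held in 1 of 6 such fits, and its adjusted p reached 0.17, and without 18 kHz replicates 1 and 2 the change was 0.56 (0.173).

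Rpl3 itself, at the peptidyl transferase centre, averaged 15.07 ± 0.01 at 52 °C and 15.05 ± 0.12 in untreated cells of batch B (SD, n = 3 each). Rps27l, a p53-responsive paralog of Rps27, averaged 13.90 ± 0.27 at 18 kHz, 13.99 ± 0.10 at 1 kHz and 14.16 ± 0.10 in untreated cells, and was called in none of the comparisons with untreated cells. Rps6, the substrate of the S6 kinases, averaged 14.01 ± 0.18 at 18 kHz, 14.16 ± 0.13 at 1 kHz and 14.20 ± 0.15 in untreated cells. In batch B it averaged 14.02 ± 0.25 in untreated cells, 13.98 ± 0.01 at 42 °C, 13.82 ± 0.05 at 47 °C and 14.08 ± 0.15 at 52 °C. None of these differences passed the test.

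Several other members with known roles outside the ribosome also did not pass the test. Rps14 averaged 15.03 ± 0.18 at 18 kHz, 14.84 ± 0.14 at 1 kHz and 14.77 ± 0.07 in untreated cells. Rpl13a, which in human cells joins a complex that silences inflammatory mRNAs, averaged 12.42 ± 0.08 at 52 °C and 12.28 ± 0.12 in untreated cells. Rpl26, which binds p53 mRNA, averaged 14.51 ± 0.10 at 52 °C and 14.47 ± 0.08 in untreated cells. Rps19, mutated in Diamond-Blackfan anaemia, had its bright probe 6280541 at 15.15 ± 0.01 at 52 °C and 14.97 ± 0.10 in untreated cells, and its dim probe 3840465 at 4.88 ± 0.41 and 5.63 ± 0.23 in the same groups. The dim probe changed by -0.75 (limma adjusted p 0.0511).

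Actuation at 1 kHz moved no member past the threshold, and several of its larger differences divided by beadchip. Rplp0 probe 5570093 stood at 11.20, 9.11 and 11.03 at 1 kHz, at 10.71, 8.99 and 8.79 at 18 kHz, and at 8.70, 9.22 and 9.37 in untreated cells. The 3 high arrays, from both frequencies, were those of beadchip 1, and the 6 low arrays were those of beadchip 2. The change from untreated was 1.35 ± 0.64 at 1 kHz (limma adjusted p 1). With the beadchip as a block it was 0.08, and within beadchip 2 it was 0.02.

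In batch A, 13 of 91 member probes had no overlap between the 3 arrays of beadchip 1 and the 6 of beadchip 2, or 14.3% of them, against 10.1% of all tested probes. Of these 11 were higher on beadchip 1, among them Rpl4 5290079, Rpl22l1 2260093, Rpl23 50195, Rpl27a 7400243 and Rps20 1740750. Rpl22l1, the paralog of Rpl22, lay between 11.89 and 12.34 on beadchip 1 and between 10.12 and 10.87 on beadchip 2. Its change at 1 kHz was 1.12 over all arrays and 0.08 with the beadchip as a block. Rps20 changed by 0.90 and 0.06, and Rpl23 50195 by 0.93 and -0.11, in the same fits. In batch B no member was so divided between beadchips of 6 arrays each, and 0.414% of all tested probes were.

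**Figure D4:**
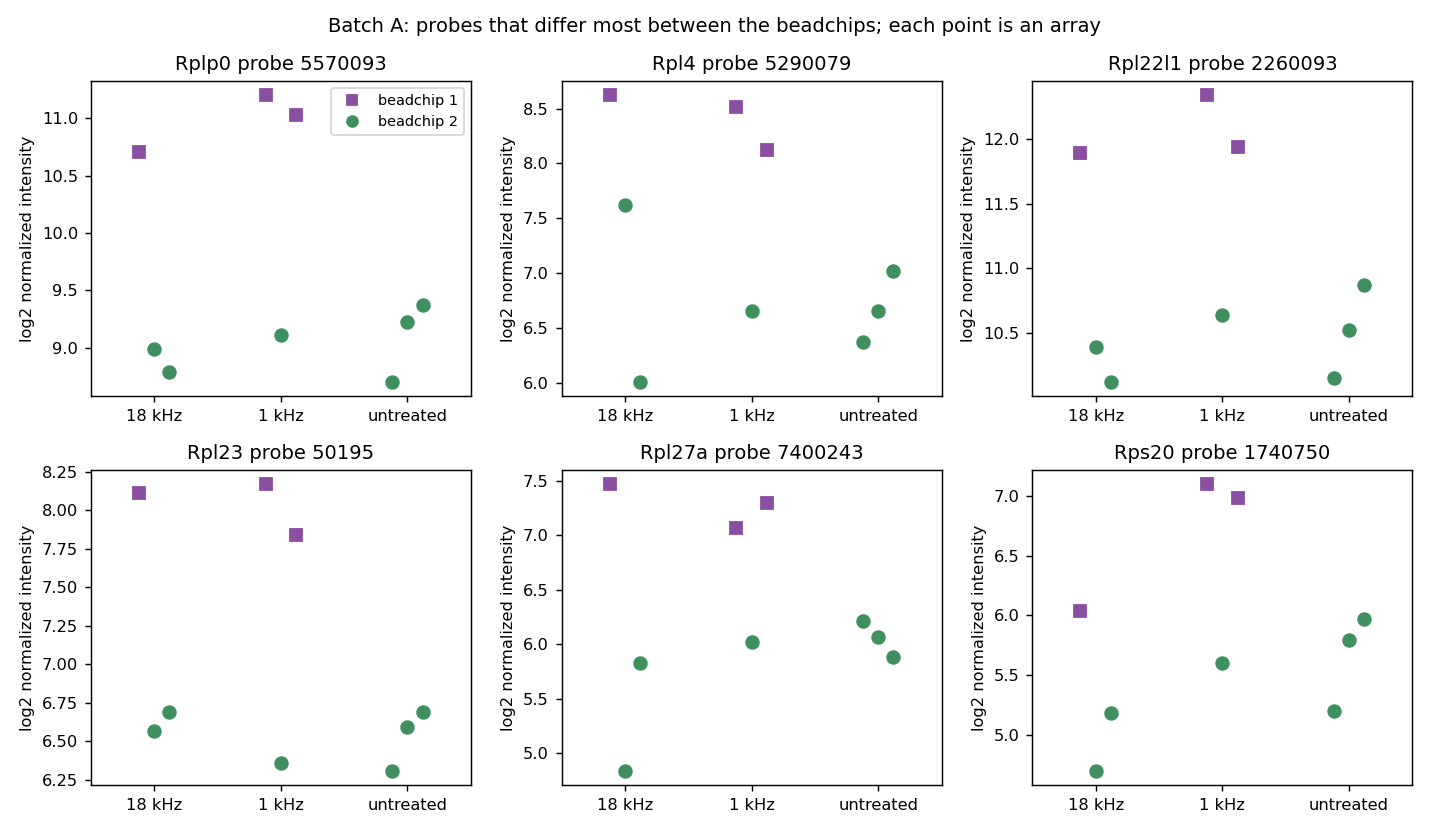
Level (log2 normalized intensity) of the 6 member probes with the largest difference between the beadchips of batch A, on each array at 18 kHz, at 1 kHz and in untreated cells. Squares, the 3 arrays of beadchip 1, lie above all circles, the 6 arrays of beadchip 2, in every panel, and no untreated array was on beadchip 1.

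For genes read by several probes, the change differed from probe to probe. The range of the change over a gene's probes had a median of 0.40 at 18 kHz and 0.24 at 1 kHz over 19 genes, and 0.15 at 42 °C, 0.26 at 47 °C and 0.27 at 52 °C over 21 genes. No gene had all of its probes called in any of these comparisons. At 18 kHz the widest ranges were those of Rps13, from -2.19 to -0.09, and Rpl23, an inhibitor of Mdm2, from -0.24 to 0.63. At 47 °C they were those of Rps24, from -1.0 to 0.30, and Rps13, and at 52 °C those of Rps13, from -1.04 to 0.03, and Rps19, from -0.75 to 0.17.

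The scale used to align the arrays moved the level of the members as a whole. At 18 kHz their median change was -0.01 after quantile normalization, -0.69 after scaling arrays to the median and 0.61 after scaling to the 95th percentile. The median of all probes was -0.08, -1.09 and 0.20 under the same scalings, so the members stood 0.08, 0.40 and 0.40 above it, where the last 2 are equal by construction, since both scalings shift all probes of an array alike. At 52 °C they stood 0.07 above the median of all probes after quantile normalization and 0.23 above it after either scaling, at 47 °C -0.02 and 0.15, at 42 °C 0.01 and 0.13, and at 1 kHz 0.05 and -0.01. The higher and lower member calls under median scaling were 0 and 13 at 18 kHz, 0 and 15 at 47 °C and 1 and 10 at 52 °C. The lower calls were 14.3%, 16.3% and 10.9% of the tested members, where 49.0%, 31.4% and 29.8% of all probes were called lower. Under scaling to the 95th percentile they were 1 and 2 at 18 kHz, 6 and 2 at 47 °C and 6 and 1 at 52 °C. The higher calls were 1.1%, 6.52% and 6.52% of the members, where 0.941%, 5.08% and 11% of all probes were called higher. The sign of the members' median thus differed between scalings in every treatment. In the order quantile, median and 95th percentile it was 0.01, -0.01 and -0.02 at 1 kHz and 0.01, -0.02 and 0.15 at 42 °C.

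**Figure D5:**
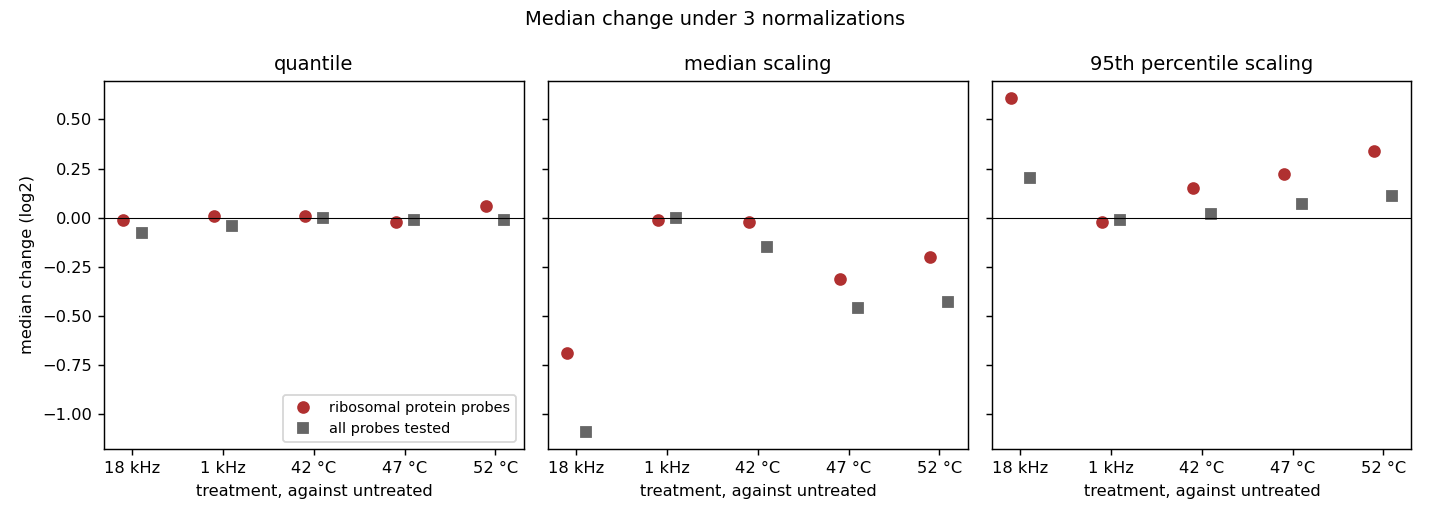
Median change (log2) of the tested ribosomal protein probes and of all tested probes in the 5 treatments after quantile normalization, median scaling and 95th percentile scaling. At 18 kHz the members' median is -0.01, -0.69 and 0.61 under these scalings, and at 1 kHz all medians lie near 0.

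The members' share of the summed raw intensity needs no alignment of arrays, but that intensity includes background, which was not subtracted. It was 8.20%, 7.25% and 7.95% at 18 kHz, and averaged 7.80% ± 0.493 there, 7.25% ± 0.114 at 1 kHz and 7.30% ± 0.134 in untreated cells (SD, n = 3 each). The 18 kHz arrays overlapped the untreated ones, with an exact two-sided permutation p of 0.2. In batch B the share was 7.43% ± 0.219 in untreated cells, 7.71% ± 0.283 at 42 °C, 8.13% ± 0.313 at 47 °C and 8.28% ± 0.397 at 52 °C. The exact permutation p was 0.2 at 42 °C and 0.1 at 47 °C and at 52 °C, and 0.1 is the smallest value that 3 arrays against 3 allow. The 95th percentile of raw intensity was 1255.8 to 1537.2 in untreated cells and 997.1 to 1563.7 at 42 °C. At 47 °C it was 861.6 to 1110.4 and at 52 °C 846.0 to 1082.4. The members' median raw intensity averaged 10217.7 in untreated cells, 10365.6 at 42 °C, 7416.6 at 47 °C and 7985.9 at 52 °C. The part of background and array brightness in the share was not tested.

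Other genes of translation were taken from lists of known genes. Of 51 probes of TOP mRNAs that do not encode ribosomal proteins, mostly translation factors, none was higher and 7 were lower at 18 kHz. These 7 probes read only Eef2, Eif4a2 and Pabpc1, each by several probes, and 1.66% of all probes were called lower there. None of the 51 was called by limma at 1 kHz. At 42 °C none was higher and 1 lower, where 2.38% of all probes were called in either direction. At 47 °C, 1 was higher and 11 lower, where 4.41% of all probes were called lower, and at 52 °C 1 was higher and 6 lower, where 6.24% were. Without 18 kHz replicates 1 and 2 the median change of the 51 at 18 kHz was -0.12, and without 52 °C replicates 2 and 3 their median at 52 °C was -0.02. Each of these fits left 1 treated array, so it cannot show whether the calls hold. Over all arrays the median changes of the 51 were -0.17, -0.05, -0.08, -0.25 and -0.14, against member medians of -0.01, 0.01, 0.01, -0.02 and 0.06. Eef2, the translocation factor of elongation, had its 3 probes at -0.90, -0.91 and -0.71 at 18 kHz, all called by limma, and at -0.58, -0.55 and -0.44, none called, without replicates 1 and 2. Eif4a2, an RNA helicase of initiation, had probe 4540022 at -1.80 at 42 °C and -1.23 at 47 °C. At 18 kHz without replicates 1 and 2 that probe was at -1.39 and the Eif4a2 probe 7050300 at -0.75. Ipo5, which imports ribosomal proteins into the nucleus, changed by -0.67 at 47 °C and -0.51 at 52 °C.

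Of the genes that control translation, 39 probes were tested in batch A and 36 in batch B. At 18 kHz 2 were higher, Pdcd4, an inhibitor of Eif4a, by 1.59 and Rptor, a subunit of mTORC1, by 0.59, and 2 probes of Eif5, which helps select the start codon, were lower, where 1.28% of all probes were called higher and 1.66% lower. At 47 °C 3 were lower, among them Larp1, the TOP-binding repressor, at -0.86, where 4.41% of all probes were called lower, and at 52 °C 2 Eif5 probes were lower, with changes of -0.94 and -1.96, where 6.24% were. Without 18 kHz replicates 1 and 2 these changes at 18 kHz were 0.92 for Pdcd4, 0.57 for Rptor, and -0.62 and -0.59 for Eif5. Without 52 °C replicates 2 and 3 the Eif5 changes at 52 °C were -0.25 and -1.81. With 1 treated array left, these fits cannot show whether the calls of this list hold. Rack1, a scaffold on the small subunit not caught by the name rule, averaged 10.70 ± 0.12 at 52 °C and 10.11 ± 0.01 in untreated cells, a change of 0.59 (limma adjusted p 0.0162), or 0.68 without 52 °C replicates 2 and 3 (0.112). Of 24 tested probes named for ribosomal protein pseudogenes, a list added after the values were seen, 3 were higher at 52 °C, Rpl21-ps4 by 0.73, Rpl21-ps8 by 0.61 and Rps6-ps3 by 0.61, where 6.55% of all probes were called higher. Without 52 °C replicates 2 and 3 these changes were 0.51, 0.67 and 0.56, none called by limma. Signal of a probe cannot be told apart between a gene and a near-identical copy, and whether the Rpl21 probe called above also reads such a copy was not tested.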

How the data were processed

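Illumina mouse BeadChip tables of the authors gave, per the file headers, an average signal intensity per probe, not normalized and without background subtraction, and a detection p-value per probe. A deposited log2 table of the same arrays was used as an alternative; its column medians lie near 0, and its method of centring is not given in the sources used here. The 3 array columns of batch A that match no label were not used. Each batch was processed separately with limma 3.58.1 in R 4.3.3: nec background correction (offset 16), quantile normalization and log2. Probes detected (p below 0.01) on at least 3 arrays entered 1 linear model per batch over all its arrays, with empirical Bayes variances and Benjamini-Hochberg adjustment over 14130 probes in batch A and 13773 in batch B; a call is an adjusted p below 0.05. The fit was tested on data with known changes. Gene names came from accessions for 102 member probes and from symbols for 3.

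Named probes were all called members whose groups did not overlap, the 5 with the smallest p where fewer than 4 were called, and a list of subunits and paralogs with known roles. Only some of those with the smallest p and of that list are described above. The members and lists were chosen with earlier results of these data known. No array pair was identical. Background correction, scaling, filters, probe choice, the variance prior, the beadchip, the replicate number and each array were varied.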

Additional observations from a re-analysis of the deposited data

How the results depend on the processing

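Counts of called members at 18 kHz, 18 kHz against 1 kHz, 42 °C, 47 °C, 52 °C, 47 °C against 42 °C, 52 °C against 42 °C and 52 °C against 47 °C were 3, 3, 0, 4, 5, 2, 3 and 2. Calls over all probes moved with the setting too, as under the scalings above. A count under another setting is therefore not by itself a response of the members. For most settings below the calls over all probes are not given, so their member counts cannot be set against a share. No background correction gave 7 at 18 kHz, 5 for 18 kHz against 1 kHz, 8 at 52 °C and 4 for 52 °C against 47 °C. An offset of 50 gave 5 for 18 kHz against 1 kHz and 4 for 52 °C against 47 °C. Median scaling gave 13, 19, 1, 15, 11, 4 and 5 in the first 7, and 95th percentile scaling 1 for 18 kHz against 1 kHz and 8 at 47 °C. No detection filter gave 2 at 47 °C, 3 at 52 °C, 1 for 47 °C against 42 °C and 1 for 52 °C against 47 °C. Detection on every array gave 5 at 18 kHz and 1 for 47 °C against 42 °C. One probe per gene gave 1 at 47 °C, 3 at 52 °C and 1 in each comparison between temperatures. A trended robust prior gave 7, 5, 8 and 5 at 18 kHz, 18 kHz against 1 kHz, 52 °C and 52 °C against 47 °C. Only the 2 groups in the fit gave 0, 0, 2, 3 and 0 at 18 kHz, 18 kHz against 1 kHz, 42 °C, 52 °C and 52 °C against 47 °C. The beadchip block gave 5 for 52 °C against 42 °C, where 617 of 13773 probes were called higher and 586 lower. Within beadchip 1 the counts were 13 for 18 kHz against 1 kHz, 4 at 42 °C, 14 at 52 °C, and 0 for 47 °C against 42 °C and 52 °C against 47 °C; within beadchip 2 they were 0 at 18 kHz, 18 kHz against 1 kHz, 52 °C and 52 °C against both other temperatures. Of these fits within a beadchip, all but 18 kHz against untreated and 52 °C against 42 °C on beadchip 2 set 1 array against 2, so their counts rest on a lone array. The deposited log2 table gave 15, 11, 3, 9 and 13 in the first 5, and 7 for 52 °C against each other temperature. With 1 array at 52 °C, chosen after seeing the data, counts were 0, 1 and 0 against untreated, 42 °C and 47 °C. Zero counts are limma's.

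Leaving out 1 array moved the counts over 0 to 24 at 18 kHz, 0 to 18 for 18 kHz against 1 kHz, 0 to 2 at 47 °C, 2 to 13 at 52 °C, 1 to 3 for 47 °C against 42 °C, 2 to 8 for 52 °C against 42 °C and 0 to 6 for 52 °C against 47 °C. At 1 kHz and 42 °C they stayed at 0. The medians moved over -0.01 to 0.04 at 18 kHz, 0.00 to 0.01 at 1 kHz, -0.02 to 0.01 for 18 kHz against 1 kHz, 0.01 to 0.03 at 42 °C, -0.04 to 0.00 at 47 °C, 0.05 to 0.08 at 52 °C, -0.06 to -0.04 for 47 °C against 42 °C, 0.05 to 0.07 for 52 °C against 42 °C and 0.05 to 0.10 for 52 °C against 47 °C.

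Median scaling gave medians of -0.69 at 18 kHz, -0.01 at 1 kHz, -0.75 for 18 kHz against 1 kHz, -0.02 at 42 °C, -0.31 at 47 °C, -0.20 at 52 °C, -0.27 for 47 °C against 42 °C, -0.19 for 52 °C against 42 °C and 0.02 for 52 °C against 47 °C. Scaling to the 95th percentile gave 0.61, -0.02, 0.55, 0.15, 0.22, 0.34, 0.10 and 0.18 in the first 8 of these. Without the dimmest 18 kHz arrays the medians were 0.05 at 18 kHz and 0.03 against 1 kHz. No detection filter gave -0.01 at 1 kHz. One probe per gene gave 0.02 at 1 kHz, 0.01 at 47 °C and -0.02 for 47 °C against 42 °C. Without bright probes they were -0.01 at 1 kHz, 0.09 at 42 °C, -0.08 at 47 °C, 0.15 at 52 °C, -0.12 for 47 °C against 42 °C and 0.16 for 52 °C against 47 °C. Within beadchip 2 the 42 °C median was 0.05, detection on every array gave 0.00 at 47 °C, and 1 array at 52 °C gave 0.02 against untreated and -0.01 against 42 °C. The medians carry no test.

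Direction turned for 3 named probes: Rplp0 1340246 at 18 kHz under median scaling (-0.64, limma adjusted p 0.217), Rpl3l 1850100 for 18 kHz against 1 kHz under median scaling (-0.45, adjusted p 0.351), and Rpsa 5490554 for 18 kHz against 1 kHz within beadchip 1 (0.61), which held 1 array at 18 kHz and 2 at 1 kHz. Under median scaling the median of all probes was -1.09 at 18 kHz and -1.13 for 18 kHz against 1 kHz, so Rplp0 and Rpl3l lay above it. The cause was not tested. With a replicate block the calls were 2 at 18 kHz, 2 for 18 kHz against 1 kHz, 4 at 47 °C, 4 at 52 °C and 2 for each comparison between temperatures, and 0 at 1 kHz and 42 °C. For batch A, deviations of same-numbered arrays correlated between -0.227 and 0.447, and those of differently numbered arrays between -0.581 and 0.428. For batch B these ranges ran from -0.432 to 0.154 and from -0.305 to 0.488. They cannot decide whether same-numbered samples came from a shared culture, since some such pairs also shared a beadchip and the labels name no culture. Within batch A's beadchip 1 no comparison with untreated cells was possible, and 47 °C against untreated within beadchip 2, with 1 array of each, was not run.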
